A study of Mus musculus with 40 samples.

Results

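Slc17a7 encodes VGLUT1, a vesicular glutamate transporter, and 4 of 40 libraries from punches of the mouse ventral tegmental area (VTA) held it at a high level. Libraries were selected on their Slc17a7 level, as its share of the library's total counts (CPM), and one above 100 CPM was counted as high. The other 36 libraries lay below that value. The 4 high libraries were DBA control female replicate 3, C57 control male replicate 1, C57 RCF female replicate 4 and C57 control male replicate 5. They are called DBA female 3, control male 1, RCF female 4 and control male 5 from here on, and values listed for all 4 follow that order. Since the libraries were chosen by their counts of Slc17a7, every comparison of the 4 with the 36 below is a description and carries no test.

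The study measured messenger RNA in VTA punches of adult C57/Bl6 and DBA mice, males and females, after repeated cross fostering (RCF) or without it. In RCF the adoptive mother of a litter is replaced daily between postnatal days 1 and 4. Each combination of strain, sex and treatment had 5 libraries, which gave 8 groups. The 4 high libraries came from 3 of them: 2 of the 5 control C57 males, 1 of the 5 cross-fostered C57 females and 1 of the 5 control DBA females. The labels name the tissue as VTA for all 40 and name no animal or litter for any library. The p-values given for the study's own groups therefore measure the spread between libraries, part of which may be technical.

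The library labelled C57 control male replicate 5 did not match its strain label in full. Genes that split the strains were chosen in the 36 lower libraries, with a lowest value of at least 1 CPM in one strain and at least 5 times the highest value in the other. There were 40 such genes high in DBA and 10 high in C57. On a scale from the C57 median (0%) to the DBA median (100%), control male 5 lay at a median of 24.6% over the 40 genes, and all 40 were above every lower C57 library. The other 19 C57 libraries lay at medians of -0.0542% to 0.114% and the 20 DBA libraries at 92.4% to 108%. The 36 lower libraries chose the genes and set the scale, so their own values near 0% or 100% are fixed by that choice. Over the 10 genes high in C57, control male 5 lay at 67.9% of the C57 level, against 81.4% to 114% in the other C57 libraries. The other 3 high libraries, which like control male 5 took no part in the choice of genes, followed their strain labels on both sets. DBA female 3 had the lowest value of the DBA libraries over the 40 genes, 92.4%. Control male 1 and RCF female 4 lay at 85.0% and 81.4% over the 10 genes high in C57. The source of the DBA signal in control male 5 was not tested, and the counts for the whole contrast are given with and without that library. The check was made after the data were seen.

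Vesicular glutamate transporters load glutamate into synaptic vesicles, and the brain divides the work between them by region. Slc17a7 is the main form in excitatory neurons of the neocortex and hippocampus, in cerebellar granule cells and in several pontine and other precerebellar nuclei. Slc17a6, which encodes VGLUT2, is the main form in the thalamus, hypothalamus, midbrain and much of the brainstem, and some VTA neurons use it. Slc17a7 in a midbrain punch can therefore be read beside genes of the regions where it is common.

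Slc17a7 (ENSMUSG00000070570.5, chromosome 7, 45163949 to 45176142, plus strand, GRCm38) was at 1226 CPM in DBA female 3, 1122 in control male 1, 973 in RCF female 4 and 480 in control male 5. These values rested on 29550, 25217, 20792 and 11521 counts, and counting error alone gave exact binomial 95% intervals no wider than 1212 to 1240 CPM for the highest. In the 36 libraries below the threshold it ran from 2.85 to 97.3 CPM with a median of 9.26. The lowest value inside the high set was thus 480 CPM and the highest outside it was 97.3, in C57 RCF male replicate 5. The next library below had 44.05 CPM, and a threshold of 200 CPM gave the same 4 libraries.

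The library just below the threshold carried some of the same genes at lower levels. C57 RCF male replicate 5 was the highest of the 36 for 5 of 11 genes of excitatory neurons of the telencephalon, the embryonic division that forms cortex, hippocampus and striatum. These were Nrgn, Camk2a, Icam5, Mef2c and Ddn. It was also the highest of the 36 for Tbr1, at 13.9 CPM. Its group was the widest outside the high set, with Slc17a7 between 5.28 and 97.3 CPM and a median of 40.2. In the other 7 groups the libraries below the threshold stayed at or under 37.3 CPM.

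**Figure D1:**
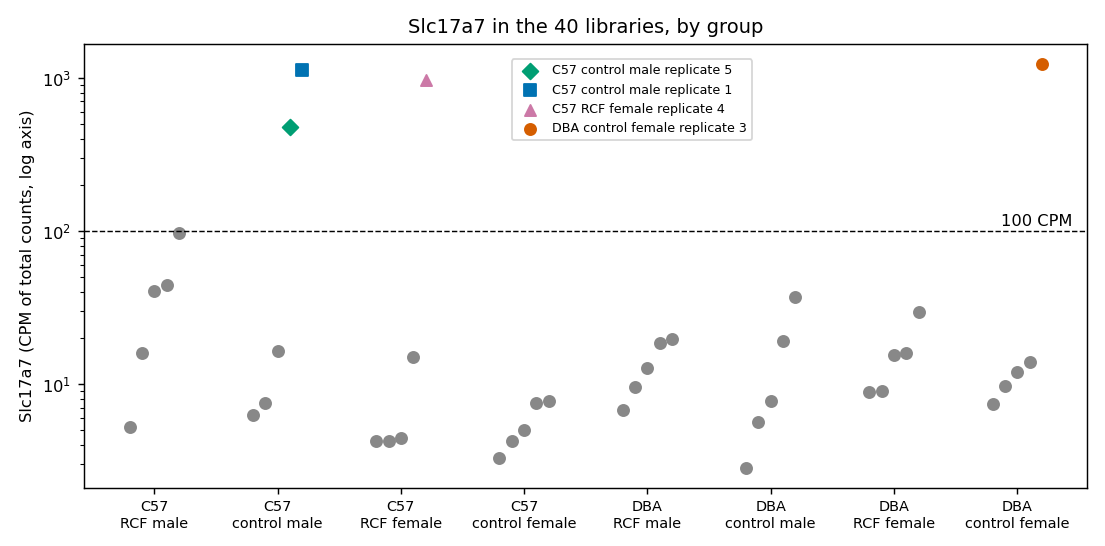
Slc17a7 in each of the 40 libraries, in CPM of total counts on a log axis, by group, with libraries ordered by value within a group. Each point is 1 library, coloured symbols mark the 4 libraries above 100 CPM (dashed line), and grey points are the other 36, the highest of which is 97.3 CPM in the C57 RCF males.

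The depth of the 4 lay within the range of the 36. Total counts were 21366400 to 24099632 in the 4 and 16913124 to 28179071 in the 36. The number of genes with a count was 23396 to 24223 against 22170 to 24962. Mitochondrial transcripts made up 5.77% to 8.77% of counts against 4.53% to 7.88%, and the highest share was in a high library. No pair of libraries of 1 group had counts that agreed within sampling noise.

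Slc17a6, the transporter common in midbrain, was at 185 CPM in DBA female 3, 199 in control male 1, 181 in RCF female 4 and 196 in control male 5. The 36 other libraries ran from 69.8 to 521 CPM with a median of 353. The 4 values lay close together in the lower part of that range, above 4 of the 36 libraries. Counts of Slc17a7 were 6.61, 5.64, 5.36 and 2.44 times those of Slc17a6 in the same order, while the ratio was at most 0.377 in the 36, with a median of 0.0335. Slc17a8, which encodes VGLUT3, was at 1.16 to 5.16 CPM in the 4, inside or below the range of 1.51 to 43.5.

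The genes of inhibitory transmission separated RCF female 4 from the other 3. Slc32a1, the vesicular transporter for GABA and glycine, was at 46.4 CPM in RCF female 4 and at 83.9, 140 and 193 in DBA female 3, control male 1 and control male 5. The lowest of the 36 libraries had 80.4. Gad1 and Gad2, which encode the enzymes that make GABA, were at 44.4 and 56.96 CPM in RCF female 4, again below all 36 (lowest values 73.4 and 119). In the other 3 high libraries both genes lay within the range of the 36.

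Of all 18161 genes that reached 1 CPM in any library, DBA female 3 exceeded all 36 lower libraries for 9.83%, control male 1 for 7.51%, RCF female 4 for 9.89% and control male 5 for 6.21%. They lay below all 36 for 13.2%, 11.5%, 20.8% and 12.5% of genes. The counts of list genes that follow stand beside these shares, and nothing is concluded from the difference. The median log2 ratio of a library to the lower libraries of its strain was between -0.14 and -0.07 over all genes. In bulk punches, fewer cells of a type and less RNA per cell cannot be told apart.

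Genes of telencephalic excitatory neurons came with Slc17a7 in 3 of the 4 libraries. All 11 genes of that list exceeded all 36 lower libraries in DBA female 3, and 10 of 11 did so in control male 1 and in control male 5. The median log2 ratios were 3.98, 3.52 and 3.11. In RCF female 4 the list was mostly low, with 3 of 11 genes above all 36, 5 below all 36 and a median of -1.28. The heat map of list medians shows this split as the row with 3 red cells and 1 blue cell.

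**Figure D2:**
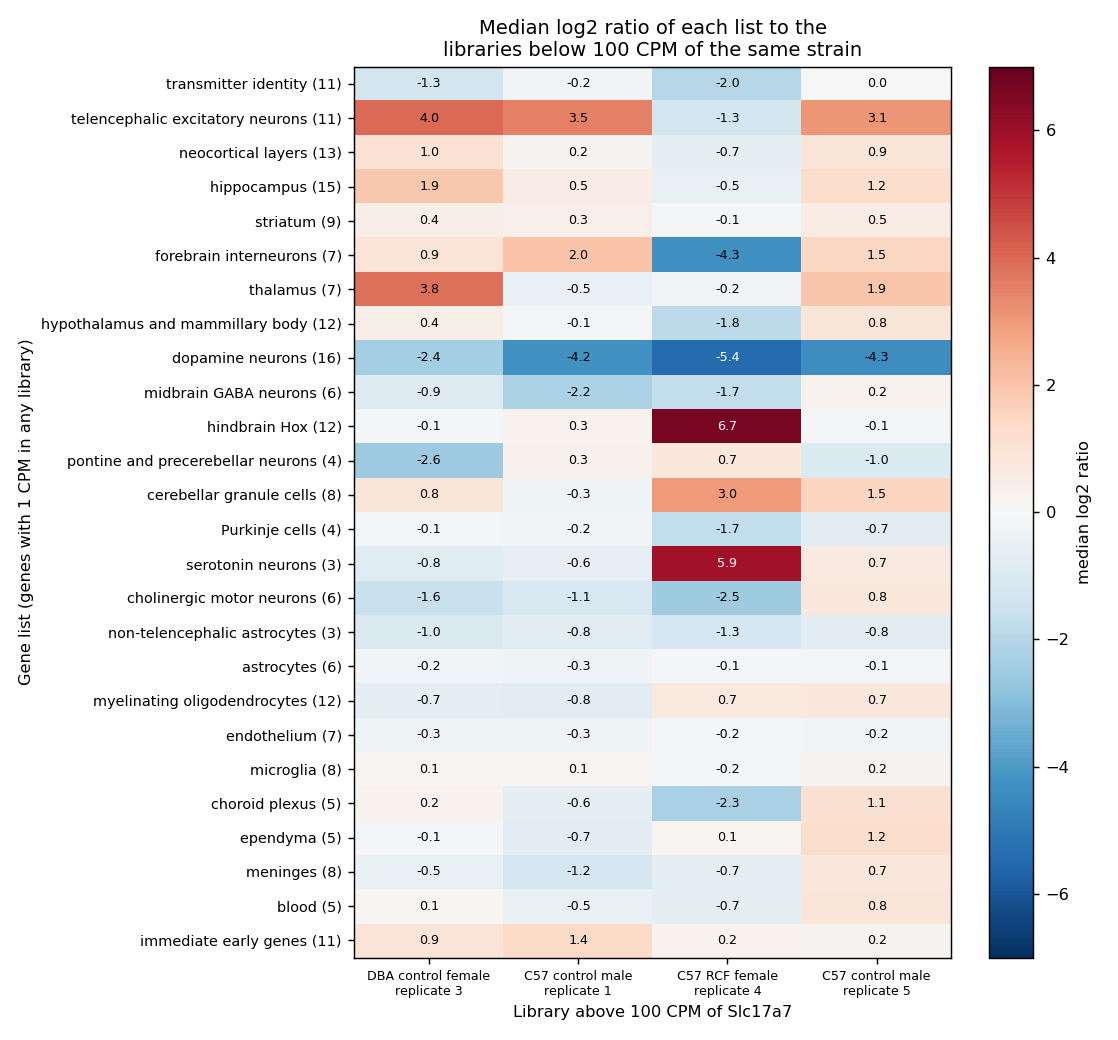
Median log2 ratio of CPM (prior count 2) of each gene list, in each of the 4 libraries above 100 CPM of Slc17a7, to the median of the libraries below 100 CPM of the same strain; the number of genes with at least 1 CPM in any library stands in parentheses. Red is higher and blue lower than the lower libraries; telencephalic excitatory genes are at 4.0, 3.5 and 3.1 in 3 libraries, and hindbrain Hox genes at 6.7 in RCF female 4.

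Tbr1, a transcription factor of early-born cortical projection neurons (chromosome 2, 61802930 to 61814114, plus strand), was at 106 CPM in DBA female 3, 118 in control male 1, 55.8 in control male 5 and 0.936 in RCF female 4. The 36 other libraries ran from 0.162 to 13.9 with a median of 1.27, so 3 libraries were above all of them and the fourth was below their median. Camk2a, the alpha subunit of a synaptic kinase abundant in forebrain excitatory neurons, was at 2367, 2237 and 1238 CPM in the 3 and 44.9 in RCF female 4. That last value was below the lowest of the 36, 129 CPM.

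Only Neurod6, Neurod2 and Rtn4r of the 11 were above all 36 lower libraries in each of the 4. Neurod6 and Neurod2 encode transcription factors of differentiating excitatory neurons, and Rtn4r encodes the Nogo receptor. Neurod2 (chromosome 11, 98325415 to 98329648, minus strand) was at 96.6 CPM in DBA female 3, 57.7 in control male 1, 67.4 in RCF female 4 and 45.4 in control male 5, against 0.586 to 13.4 in the 36. Neurod6 was at 173, 85.9, 33.7 and 47.3 CPM in the same order, against 2.15 to 19.7. For both genes the 4 values and the 36 did not overlap.

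Among 13 genes of neocortical layers, 6 in DBA female 3, 5 in control male 1 and 5 in control male 5 exceeded all 36 lower libraries. Tbr1, Fezf2 and Lamp5 were in all 3 of these counts. RCF female 4 had 3 of 13 above all 36, namely Lamp5, Scnn1a and Hs3st2, and 3 below, with a list median of -0.66, and its 96.1 CPM of Lamp5 exceeded the 28.4 CPM of DBA female 3. Fezf2, a determinant of subcortically projecting neurons, was at 44.5, 27.4 and 19.1 CPM in DBA female 3, control male 1 and control male 5. In RCF female 4 Fezf2 was at 0.0468. Hs3st2, which encodes a heparan sulfate sulfotransferase, exceeded all 36 (highest 11.6 CPM) in DBA female 3, control male 1 and RCF female 4, and was at 9.74 in control male 5. Cux2 and Tle4 stayed within the range of the 36 in the 3 telencephalic libraries. Rspo1 was below all 36 in DBA female 3, at 3.15 CPM (lowest of the 36, 3.63). Nxph4 was below all 36 in control male 5, at 7.04 CPM (lowest of the 36, 15.3). The list medians of the 3 libraries were 1.04, 0.17 and 0.87.

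Hippocampal genes differed among those 3 libraries. DBA female 3 exceeded all 36 lower libraries for 7 of 15 genes of the list. Control male 5 did so for 6 and control male 1 for 1. Spink8 and Lct of the list were above all 36 in both DBA female 3 and control male 5. Spink8 was at 6.18 and 1.87 CPM there (highest of the 36, 0.296), and Lct at 13.9 and 7.99 (highest of the 36, 1.83). Fibcd1, a marker of CA1 pyramidal cells, was at 137 CPM in DBA female 3, and at 15.0, 21.5 and 24.6 in control male 1, RCF female 4 and control male 5. Only the first of these lay outside the range of the 36, which was 4.27 to 30.1. Wfs1, another gene high in CA1, was at 171 CPM in DBA female 3 and at 39.3 to 66.0 in the other 3, against at most 72.4 in the 36.

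Control male 5 exceeded the 36 for 3 genes high in dentate gyrus granule cells. Prox1, a transcription factor of those cells, was at 63.9 CPM (highest of the 36, 61.6), C1ql2 at 27.1 (26.5) and Dsp, which encodes desmoplakin, at 10.1 (3.12). The first 2 margins were narrow. Plk5 and Tdo2, also known from dentate granule cells, were inside the range of the 36 there, at 15.5 and 1.25 CPM (medians of the 36, 25.8 and 0.171), and Amigo2 of the same list was below all 36. In DBA female 3 Prox1, C1ql2 and Dsp were at 36.6, 1.83 and 1.33 CPM, and the value of C1ql2 was below all 36. Rgs14, a regulator of G-protein signalling known from area CA2, was at 67.4 CPM in DBA female 3, 23.3 in control male 1 and 18.2 in control male 5, above all 36 (0.932 to 6.15) in each. RCF female 4 held Rgs14 at 0.140 CPM, below all 36, and of the 15 hippocampal genes 6 were below all 36 there and 1, Lct, above.

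Interneuron genes of the forebrain followed the telencephalic genes. Vip, a neuropeptide gene of cortical interneurons, was at 13.98 CPM in DBA female 3, 10.4 in control male 1 and 16.2 in control male 5, above all 36 (highest 9.92). RCF female 4 had 0 counts of Vip and Dlx6, which allows up to 0.140 CPM of each. The 7 genes of this list summed to 120.2, 88.2, 7.39 and 84.5 CPM in the 4, against 30.6 to 146 in the 36.

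Thalamic genes came with the telencephalic ones in DBA female 3. All 7 genes of that list were above all 36 lower libraries there, against 1 of 7 in control male 5 and 0 of 7 in control male 1 and in RCF female 4. Prkcd, a protein kinase C gene high in sensory thalamic nuclei, was at 555 CPM in DBA female 3, 57.4 in control male 5, 33.4 in RCF female 4 and 8.23 in control male 1. The 36 ran from 7.82 to 149 CPM with a median of 13.6, the highest being DBA control male replicate 2. Tnnt1, which encodes a troponin expressed in thalamus, was at 94.5 CPM in DBA female 3 and at most 8.95 in the other 3, against at most 11.8 in the 36. The list's summed level was 1123 CPM in DBA female 3, 184 in control male 5, 84.9 in RCF female 4 and 50.9 in control male 1, against 48.1 to 341 in the 36.

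RCF female 4 held hindbrain Hox genes, with most telencephalic genes low. Hox genes pattern the embryo along its axis, and in the adult brain their transcripts are found mainly in the hindbrain. Of 16 Hox genes in the table, 12 reached 1 CPM in any library. All 12 exceeded the 36 lower libraries in RCF female 4, and 0 of 12 did so in each of the other 3. Their summed level was 177 CPM there, 0.456, 0.934 and 0.708 in DBA female 3, control male 1 and control male 5, and 0.210 to 5.68 with a median of 0.441 in the 36. None of the 16 passed the low-count filter of the gene model, since they were high in 1 library.

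Hoxb5 (chromosome 11, 96303336 to 96306121, plus strand) was at 30.6 CPM in RCF female 4, from 653 counts. It had 2 counts in DBA female 3 and 0 in control male 1 and control male 5, which allows up to 0.133 and 0.125 CPM, and the highest of the 36 was at 0.177. Hoxb3, Hoxc4 and Hoxa4 were at 37.3, 29.8 and 17.4 CPM in RCF female 4. The genes present there belonged to paralogue groups 2 to 5, with Hoxa2 at 4.17 and Hoxc5 at 7.21, while Hoxb6 was at 0.749, Hoxb8 at 0.0936 and Hoxa7 and Hoxb7 had 0 counts. Hox clusters hold overlapping transcripts on both strands, and since the strand setting of the counting is not given in the sources used here, counts of single Hox genes are uncertain.

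Lists of hindbrain neuron types differed from one another in the same library. Slc6a5, the glycine transporter of glycinergic neurons, was at 51.3 CPM in RCF female 4 and between 0.541 and 1.38 in the other 3, against at most 14.3 in the 36. Glra1, a glycine receptor gene and the other member of that list, was at 19.0 CPM there, inside the range of the 36 (highest 23.0). Barhl1, a transcription factor of precerebellar and cerebellar granule neurons, was at 53.6 CPM in RCF female 4 and at 0.415, 9.61 and 3.41 in DBA female 3, control male 1 and control male 5. The highest of the 36 had 28.9. Of the other 3 genes of the pontine and precerebellar list, Barhl2 was at 0.702 CPM in RCF female 4 (median of the 36, 9.72) and Pax6 at 23.3, inside the range of the 36. Etv1 was above all 36 in RCF female 4, control male 1 and control male 5 alike. Of 6 genes of cholinergic motor neurons 0 exceeded the 36 in RCF female 4, 3 had 0 counts, and the median was -2.50. Of the noradrenergic genes 0 exceeded the 36. Tph2 and Slc6a4, the synthesis enzyme and the reuptake transporter of serotonin neurons, were at 39.5 and 22.8 CPM in RCF female 4. Both values were below the highest of the 36 (236 and 158), and the median of Tph2 there was 0.355. In the other 3 the genes were at most at 1.46 and 0.125. The 3 serotonin genes had a median log2 ratio of 5.90 in RCF female 4. They summed to 63.9 CPM, against 0.254 to 407 with a median of 1.06 in the 36.

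Cerebellar granule genes were present in RCF female 4 only in part. Fat2, a protocadherin gene of granule cells (chromosome 11, 55250609 to 55336564, minus strand), was at 74.2 CPM from 1585 counts, against at most 0.541 in the other 3 and 0.162 in the 36. Zic1 and Zic2, zinc finger genes of granule and precerebellar neurons, were at 200.1 and 87.6 CPM, above all 36. Cbln3, a granule cell secreted protein gene, was at 8.00, also above all 36. The Zic genes were not particular to RCF female 4. Zic1 was above all 36 (highest 77.5) in DBA female 3 too, at 138 CPM, and Zic2 (highest 30.4) in control male 5, at 32.1. Of 8 genes of the list, 4 exceeded all 36 in RCF female 4, 2 in DBA female 3 (Neurod1 and Zic1), 1 in control male 5 and 0 in control male 1. Gabra6, the GABA-A subunit that defines mature granule cells, had 14 counts, 0.655 CPM with an exact binomial interval of 0.358 to 1.10. That was above the highest of the 36, at 0.142 CPM, and above the other 3, which had 0 counts, but under the 1 CPM required for the count of genes above all 36. Cbln1, a granule cell partner of Cbln3, was at 5.10 CPM, below all 36 (lowest 35.1). Genes of Purkinje cells were low, with Calb1 at 1.26 CPM, below all 36, and Pcp2 at 0.0468. In this library Slc17a7 came with Hox genes, with Slc6a5 and Barhl1, and with part of the granule cell list.

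**Figure D3:**
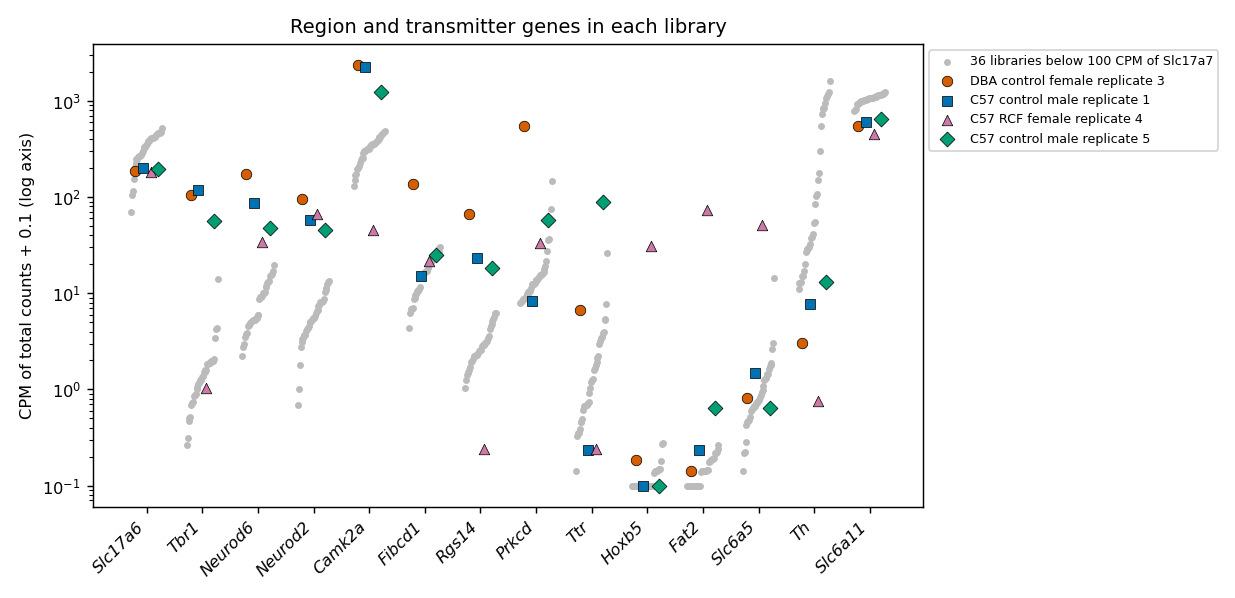
Region and transmitter genes in each library, in CPM of total counts plus 0.1 on a log axis, with the 36 libraries below 100 CPM of Slc17a7 in grey, sorted within each gene, and the 4 above as coloured symbols. Tbr1 and Camk2a are high in 3 of the 4 and low in RCF female 4, Hoxb5, Fat2 and Slc6a5 show the reverse, and Prkcd and Fibcd1 stand out in DBA female 3.

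Control male 5 also held genes of tissue other than neurons. Ttr, the transthyretin gene of choroid plexus, was at 89.1 CPM there and at 6.64, 0.133 and 0.140 in DBA female 3, control male 1 and RCF female 4, against at most 26.2 in the 36. Aqp1, a water channel gene of choroid plexus, was also above all 36 there, at 1.96 CPM against at most 0.856. Folr1 at 0.375 CPM, Kcne2 at 0.250 and Kl at 7.99 were inside the range of the 36, and the list median was 1.06. Of 8 meningeal genes, Fmod and Ogn, both proteoglycan genes, exceeded all 36, and so did the globin genes Hba-a1 and Hbb-bs, at 9.95 and 57.9 CPM. Hba-a1 has a near-identical copy, so its count is uncertain. Whether these cells take part in the other values of control male 5 was not tested.

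Myelin genes split the 4 libraries into pairs. Of 12 genes of myelinating oligodendrocytes, 9 exceeded all 36 in control male 5 and 5 in RCF female 4, and 0 in DBA female 3 and control male 1. Mbp, the myelin basic protein gene, was at 11270 and 10528 CPM in the first pair and 3129 and 3735 in the second, with 1403 to 10448 in the 36. The list medians were 0.75, 0.69, -0.68 and -0.76 in that order. Lists for general astrocytes, endothelium and microglia had medians between -0.32 and 0.20 in all 4.

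Immediate early genes, which respond to neuronal activity, were high in DBA female 3 and control male 1. In both, Egr1, Egr2, Arc, Nr4a1 and Dusp1 exceeded all 36, 5 of 11 genes of the list. Arc, a regulator of synaptic strength, was at 104.1, 129 and 68.7 CPM in DBA female 3, control male 1 and RCF female 4, and at 51.4 in control male 5, against at most 51.7 in the 36. Egr1, a zinc finger transcription factor, was at 184, 218, 62.7 and 85.2 CPM in that order, against 15.9 to 130 with a median of 47.1.

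Most dopamine neuron genes, by which a VTA punch is known, were low in the 4 libraries. Th, the rate-limiting enzyme of dopamine synthesis (chromosome 7, 142892752 to 142931128, minus strand), was at 2.90 CPM in DBA female 3, 7.65 in control male 1, 0.655 in RCF female 4 and 13.2 in control male 5. The first 3 were below all 36, which ran from 11.0 to 1603 CPM with a median of 53.9, and 4 of the 36 lay below control male 5. Slc6a3, the dopamine transporter, was at 1.45, 0.623, 0.515 and 8.33 CPM in the same order, against 0.460 to 2885 with a median of 58.9. Low values of these genes were not confined to the 4, since 14 of the 36 libraries had less Slc6a3 than control male 5. Th and Slc6a3 were thus low in all 4 libraries and in part of the others. Aldh1a1 of the same list was at 89.2, 76.6, 229 and 178 CPM in the 4, inside the range of the 36 (27.0 to 1189, median 156). Nr4a2 was at 57.6, 36.7, 5.62 and 22.2 CPM, against 27.4 to 163 in the 36.

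Of 16 dopamine neuron genes, 6 in DBA female 3, 6 in control male 1, 9 in RCF female 4 and 5 in control male 5 were below all 36. The medians were -2.38, -4.22, -5.37 and -4.35. Drd2, the dopamine autoreceptor gene, was at 8.67, 19.5, 1.78 and 17.3 CPM in that order and did not overlap the 36 (27.2 to 320). Foxa1, a transcription factor of midbrain floor plate and dopamine neurons, was at 1.62, 3.78, 0.187 and 4.62 CPM, also below all 36 (lowest 4.85).

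**Figure D4:**
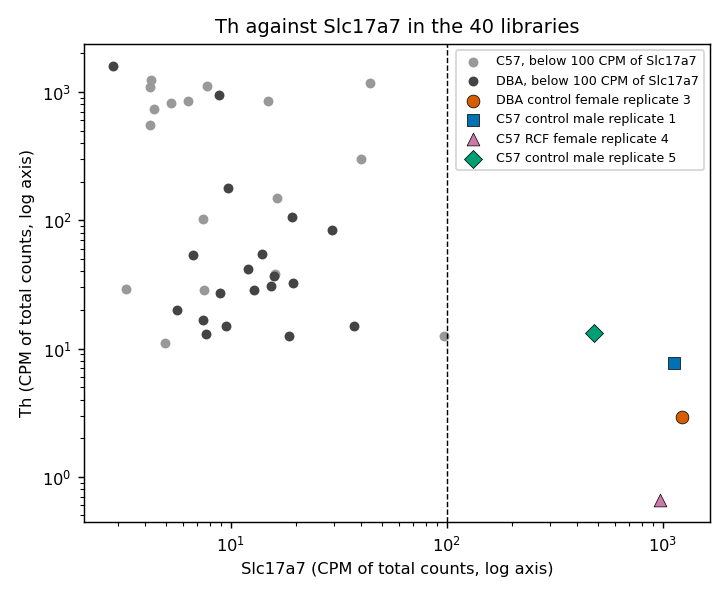
Th against Slc17a7, both in CPM of total counts on log axes, in the 40 libraries, with C57 in light grey, DBA in dark grey and the 4 libraries above 100 CPM of Slc17a7 (dashed line) as coloured symbols. The 4 lie between 0.655 and 13.2 CPM of Th, at the lower edge of the 36, whose Th runs from 11.0 to 1603 CPM.

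Slc6a11 and Agt, genes of astrocytes outside the telencephalon, were low in all 4 libraries as well. Slc6a11, the GABA transporter GAT3 of such astrocytes (chromosome 6, 114131241 to 114249952, plus strand), was at 549.6 CPM in DBA female 3, 612 in control male 1, 449 in RCF female 4 and 646 in control male 5. The 36 ran from 793 to 1237 CPM with a median of 1072 and did not overlap the 4. Agt, the angiotensinogen gene, was at 106, 128, 175 and 169 CPM, against 231 to 436. Itih3, the other gene of that list, was at 123, 127, 59.7 and 62.6 CPM, against 119 to 556 with a median of 245. Its values in DBA female 3 and control male 1 were thus inside the range of the 36. Lhx2, a gene of telencephalic astrocytes and progenitors, was at 31.4, 26.4 and 33.1 CPM in the 3 libraries with telencephalic genes. In RCF female 4 Lhx2 was at 1.22 (highest of the 36, 10.6). Mfge8, its partner in the telencephalic astrocyte list, was at 85.8, 105, 31.3 and 90.7 CPM in the 4, against 57.7 to 94.7.

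A model over all 40 libraries with strain as a covariate gave 1 average difference per gene between the 4 and the 36. Of 18441 genes tested, 887 (4.81%) were at least 2-fold higher and 739 (4.01%) at least 2-fold lower in the 4. Without RCF female 4 these were 931 (5.05%) and 796 (4.32%), and without control male 5 they were 871 and 918. The log2 fold change of Slc17a7 itself was 6.04 (SE 0.43), and that of Slc17a6 was -0.66 (SE 0.32). The averages mix libraries of unlike content, so values per library stand beside the genes named.

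After Slc17a7, the largest log2 fold changes upward included 5.42 (SE 0.47) for Tbr1 and 5.33 (SE 0.54) for Ankrd63. Fezf2, Ddn, Crym, Kcnh3, Emx1 and Rtn4rl2 followed with 4.29 to 4.67. Ddn encodes the dendritic protein dendrin, Crym a thyroid hormone binding protein, Kcnh3 a potassium channel of forebrain neurons and Emx1 a cortical homeobox factor. In RCF female 4, Emx1 was at 0.281 CPM (median of the 36, 0.222) and the other 7 of these 8 genes were below the median of the 36, with Crym at 0 counts and Ddn at 2.62 CPM, while DBA female 3, control male 1 and control male 5 held Ddn at 1243, 493 and 418. Without RCF female 4 the values of Tbr1 and Ankrd63 were 5.83 and 5.79.

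Among the 12 genes named by the size of the change, 2 had another pattern. Spp1, which encodes osteopontin, had a log2 fold change of 4.48 (SE 0.61) that rested on RCF female 4, with 801 CPM there, 3.69, 3.16 and 34.6 in the other 3 in that order, and at most 43.8 in the 36. Without that library the value was 0.57. Slc6a5, given for its role and not by size, likewise had 3.04 (SE 0.71), and -0.52 without RCF female 4. The clone-named gene AC165951.1 had 4.72 (SE 0.66), with 18.8 CPM in DBA female 3, 3.83 in control male 5 and 0 counts in the other 2. This gene split the strains, with 0 to 0.0423 CPM in the 17 lower C57 libraries and 8.22 to 11.5 in the 19 lower DBA libraries. The fold change is relative to strain, and the mean over the 4 was 5.65 CPM (SD 8.92) against 5.23 (SD 5.06) over the 36. Its value was 0.96 without control male 5 and 7.05 without DBA female 3.

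The largest changes downward were those of Slc6a3 at -7.82 (SE 2.82), En1 at -6.12 (SE 2.27), Th at -6.05 (SE 1.80) and Cnpy1 at -5.93 (SE 2.21). En1 is a midbrain and dopamine neuron homeobox gene, and Cnpy1 is known from the midbrain-hindbrain boundary. Chrna6 and Chrnb3, nicotinic receptor subunits of dopamine neurons, had -5.92 and -4.89, the orphan transporter Slc10a4 had -5.84 and the dopamine neuron factor Pitx3 had -4.05. Slc39a4, Gucy2c, Chrna2 and Pax5 completed the 12, with -4.15 to -3.76. The standard errors were large because the 36 libraries differed widely, with Th between 11.0 and 1603 CPM and Pitx3 between 0.237 and 32.7. The median of Chrna2 in the 36 was 0.141 CPM and that of Pax5 0.430, below the values of 1.08 and 3.18 in RCF female 4.

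All 16 dopamine neuron genes were at least 2-fold lower, with a median log2 fold change of -3.51, against a median of 0.01 over all genes tested. Of 11 telencephalic excitatory genes 10 were at least 2-fold higher (median 3.49), of 14 hippocampal genes 7 (1.05), of 13 neocortical layer genes 6 (0.998), of 7 thalamic genes 6 (2.23) and of 7 cerebellar granule genes 4 (1.46). Without DBA female 3 the thalamic count was 3 of 7 (0.78), and the neocortical one 6 of 13 (0.18). Without RCF female 4 the granule cell count was 3 of 7 (0.95), with Zic1 at 2.01 and Cbln3 at -1.02. Without control male 5 the counts were 10 of 11 telencephalic, 6 of 13 neocortical, 7 of 14 hippocampal and 7 of 7 thalamic genes higher and 16 of 16 dopamine neuron genes lower. Immediate early genes had 5 of 11 higher (0.97), and hypothalamic and mammillary genes 3 of 11 lower (-0.90). Pmch, a lateral hypothalamic peptide gene, was at 3.44, 17.9, 1.31 and 13.7 CPM, inside the range of 0.407 to 925 in the 36. Its log2 fold change of -1.44 (SE 1.44) was 0.94 at a threshold of 50 CPM. The median of the 4 pontine and precerebellar genes was 0.45, and -0.73 without RCF female 4. Pairs of genes stood for glycinergic neurons (median 1.54, and -0.54 without RCF female 4) and telencephalic astrocytes (2.15), and 0 of 4 noradrenergic genes passed the low-count filter, with summed levels of 0.208 to 0.515 CPM in the 4.

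**Figure D5:**
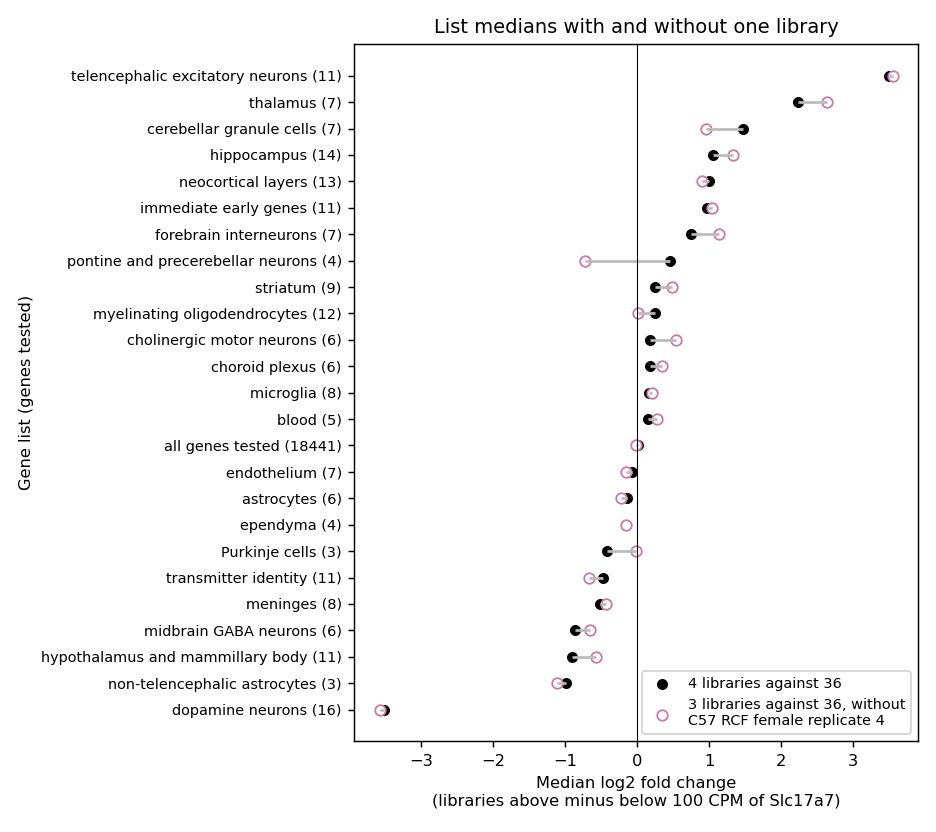
Median log2 fold change of each gene list between libraries above and below 100 CPM of Slc17a7, strain-adjusted, with all 4 high libraries (filled) and without C57 RCF female replicate 4 (open), sorted by the first; the number of genes tested stands in parentheses. Telencephalic excitatory genes lie at 3.49 and dopamine neuron genes at -3.51, and the pontine and precerebellar list crosses 0 when the library is left out.

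All 4 libraries exceeded all 36 for 123 genes (0.667%), and all 4 lay below all 36 for 305 genes (1.65%). The 3 libraries other than RCF female 4 did so for 437 (2.37%) and 494 (2.68%), and the 3 other than control male 5 for 193 (1.05%) and 452 (2.45%). Slc17a7 is 1 of the 123 by the choice of libraries, and the others came with it in RCF female 4 and in the 3 libraries with telencephalic genes alike. With the largest changes after Slc17a7 were Serinc2 (log2 fold change 4.10), the alpha-1D adrenoceptor gene Adra1d (3.87), Neurod2 (3.57), Neurod6 (3.49) and Igfbp6 (3.44), which binds insulin-like growth factors. Adra1d was at 7.49 to 30.7 CPM in the 4 and 0.182 to 3.69 in the 36, and Igfbp6 at 12.8 to 18.7 and 0.0591 to 5.61.

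Further genes of that set act at excitatory synapses. Homer1, a scaffold protein gene of the postsynaptic density, was at 48.5 to 162 CPM in the 4 and 18.2 to 29.9 in the 36. Sv2b, a synaptic vesicle protein gene, was at 175 to 509 against 72.2 to 144, and Dlgap1, another postsynaptic scaffold gene, at 234 to 544 against 117 to 217. Zbtb18, a transcriptional repressor of cortical development, was at 173 to 345 CPM against 34.6 to 65.4. These genes were chosen after their values were seen, and no list was tested.

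Downward, the 305 genes were led by Foxa1 (-3.31), Got1l1 (-3.05), Ttc6 (-2.94), Drd2 (-2.89), the cholecystokinin receptor gene Cckar (-2.42) and Jhy (-2.15). Ntn1, which encodes the axon guidance protein netrin-1, was at 16.6 to 27.4 CPM in the 4 and 30.9 to 259 in the 36. Oprk1, the kappa opioid receptor gene, was at 2.34 to 9.05 against 11.5 to 88.6. Scg2, a secretogranin gene of dense-core vesicles, was at 377 to 547 against 585 to 1481, and Zcchc12 at 73.8 to 173 against 213 to 495. Ntn1, Oprk1, Scg2 and Zcchc12 were chosen after their values were seen.

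Over the 40 libraries, with log2 CPM centred within strain, the genes whose levels followed Slc17a7 most closely included Acot5, Gabrd, Tbr1 and Ankrd33b, with Spearman's rho from 0.784 to 0.789. Lhx2, Ptk2b, Tesc, Map3k21 and Arc came next, from 0.721 to 0.738. Over the 36 lower libraries alone the same measure was 0.719 for Acot5, 0.700 for Gabrd, 0.754 for Tbr1 and 0.568 for Tesc. Acot5 was near the floor, at 0.374 to 1.49 CPM in the 4, with a median of 0 and a highest value of 1.71 in the 36. Gabrd encodes the delta subunit of extrasynaptic GABA-A receptors, and Ptk2b a calcium-sensitive kinase. Libraries share tissue content and strain, so these values describe the likeness and carry no p. RCF female 4 fits it unevenly, with Gabrd at 3.32 CPM against 24.9 to 79.9 in the other 3, and Tesc at 18.02 against 14.1 to 18.3.

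RCF libraries held 1 of the 4 and control libraries 3, DBA held 1 and C57 3 by the labels, and each sex held 2. With 4 of 40 libraries the smallest p that a two-sided Fisher's exact test could give was 0.106, so the test says nothing about whether the 4 were spread evenly over treatment, strain and sex.

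The study asked how RCF libraries differ from controls in each strain and sex, and 3 of its 4 comparisons contain a high library. The model held all 40 libraries with 1 mean per group, and genes were called at an adjusted p under 0.05 (edgeR quasi-likelihood test, Benjamini-Hochberg). It called 2 genes in C57 males (0.0108%), 1 in C57 females (0.00542%), 3 in DBA males (0.0163%) and 3 in DBA females (0.0163%). Without the 4 high libraries it called 0, 0, 3 and 10 (0%, 0%, 0.0163% and 0.0542%). At an unadjusted p under 0.05 there were 1304, 2301, 1239 and 2261 genes with all libraries and 1376, 1848, 1733 and 2538 without the 4. DESeq2, run on all 40 libraries, called 7, 85, 18 and 43.

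The genes involved were few. Zfp992 and Gm29253 were called in C57 males and had an adjusted p of 0.191 each without the 4 libraries, with log2 fold changes of -2.96 and 4.79 before and -2.71 and 4.54 after (edgeR). Slc6a5 was the gene called in C57 females, at 5.16 (adjusted p = 0.0414, edgeR), and was at 3.46 (adjusted p = 0.287) without the 4. In DBA females Gm2451 and Mrpl20 fell and Gm48159 rose in both fits. The 7 further calls without the 4 libraries were Vps13d, Gm9801, Ankrd10, Gpr179 and Gpatch8, higher in RCF, and Rnd2 and Ccdc85b, lower. Leaving out DBA female 3 alone gave 1 gene in DBA females. The DBA male calls, Gm43333, Gm48159 and Gm49192, passed in both fits.

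Leaving out libraries chosen for high Slc17a7 moves its group differences by construction, and with them those of genes that follow it, so the values with and without the 4 are given as a description. In C57 males, RCF minus control for Slc17a7 was -3.10 on the log2 scale with all libraries and 2.02 without the 4. For Tbr1 these were -3.01 and 2.31, and no gene of the telencephalic or neocortical lists passed the edgeR threshold in either fit. The median of the 11 telencephalic excitatory genes was -1.82 with all libraries and 0.53 without the 4. The second fit kept 3 C57 male controls and included C57 RCF male replicate 5.

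Each of the comparisons in DBA females and C57 females lost 1 library chosen in this way. In DBA females the value of Slc17a7 was -4.15 with all libraries and 0.49 without the 4, the median of the telencephalic genes -1.82 and 0.28, and that of the thalamic genes -1.69 and 0.05. Prkcd there was at -3.03 and -0.08. In C57 females Slc17a7 was at 5.33 and 0.33, Zic1 at 2.72 and 0.44, and the median of the granule cell genes at 1.69 and 0.40. None of Slc17a7, Prkcd and Zic1 passed the edgeR threshold in these comparisons with or without the 4 libraries. The median of the 16 dopamine neuron genes was 1.17 with all libraries and 1.49 without the 4 in C57 females. It was 1.40 and 1.15 in DBA females, 1.002 and 0.32 in C57 males, and -3.03 in both fits in DBA males. In each comparison 0 of the 16 passed the threshold. Genes of a list are not independent of one another, and Th alone ran from 11.0 to 1603 CPM within the 36 libraries.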

How the data were processed

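Messenger RNA of 40 VTA punches was sequenced as single reads of 75 nt. Per the labels' protocols, RNA came from frozen punches through a Norgen column, and the Tecan kit used for the libraries keeps strand. The submitters' processing notes name bcl2fastq 2.20, FastQC, cutadapt 1.11 and the mouse build GRCm38 (mm10). For the aligner, counting tool, strand setting and annotation, nothing is given in the sources used here. Values in the table that the authors deposited are whole-number counts per gene with no normalization, for 55471 genes, of which 42664 had a count. Total counts per library ran from 16913124 to 28179071. Gene symbols and coordinates were taken from the GENCODE annotation of GRCm38, with 54487 genes matched by versioned identifier, 657 by the identifier alone and 327 unmatched.

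CPM was the count divided by the library total. Ratios per library used a prior count of 2 and the median of the libraries below 100 CPM of the same strain. A gene counted as above all 36 where it had at least 1 CPM in the library and exceeded each of the 36. The strain-adjusted contrast and the RCF comparisons were fitted with edgeR 4.0.16 (quasi-likelihood, TMM normalization, R 4.3.3), after filterByExpr over the 8 groups left 18441 genes. DESeq2 1.42.0 and limma 3.58.1 (voom) were alternatives. At 4 against 36 libraries a gene counted as past the threshold at a 2-fold difference, without a p. Samples were grouped by the labels, and every library was used. Intervals are exact binomial (Clopper-Pearson), a count of 0 was read as allowing up to 3 counts, and both cover counting error only. The count model was tested on simulated data with known changes. Strain labels were checked with genes that split the strains among the 36 lower libraries. Whether replicate numbers pair the groups was checked before fits were compared.

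The libraries, gene lists and tests were chosen with earlier results of these data known, so no list is independent support. Named genes were the 12 with the largest fold change in each direction (mean of at least 5 CPM on the higher side), the 10 largest ratios of each library and the 10 genes most like Slc17a7, leaving out unnamed gene models, plus transmitter and region genes from the lists. Some genes that meet these rules are not reported here. Alternatives were other thresholds of 50 and 200 CPM, size factors, no low-count filter, 1 mean per group, the replicate block, another reference or prior count, DESeq2, voom and leaving out single libraries.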

Additional observations from a re-analysis of the deposited data

Results flagged for a closer look

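In groups of 5, the highest or lowest library was compared with the spread of its group for Slc17a7 and for the summed levels of the neocortical, hippocampal and hindbrain Hox lists. In 7 of 32 such groups 1 library stood farther from the others than Dixon's 95% value allows. Among independent values that rule marks about 1 group in 20. The libraries and lists here were chosen with these data known and the sums share libraries, so the count cannot be set against that rate. Of the 7 values, 6 belonged to high libraries, and for Slc17a7 itself the choice of libraries fixes this. Slc17a7 was at 973 CPM in C57 RCF female replicate 4, against 4.24 to 14.9 in the rest of its group, and at 1226 CPM in DBA control female replicate 3, against 7.42 to 13.99. In the latter library the neocortical sum was 503 CPM (others 234 to 281) and the hippocampal sum 598 (221 to 236). The hippocampal sum was 333 CPM in C57 control male replicate 5 (206 to 237). The Hox sum was 177 CPM in C57 RCF female replicate 4 (0.442 to 0.768). The seventh was DBA control male replicate 4, a library below the Slc17a7 threshold, with a Hox sum of 5.68 CPM against 0.240 to 0.821.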

How the results depend on the processing

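Depth did not limit the high values, but genes near 0 rest on a few counts, and 4 libraries of unlike content give an average that describes none of them. Without a low-count filter 4655 genes were at least 2-fold higher and 5691 lower. Leaving out 1 high library gave 871 to 931 higher and 796 to 1010 lower.

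The log2 fold change of Slc6a5 was -0.52 without C57 RCF female replicate 4 and up to 3.48 with another high library left out, and that of Pmch was 0.94 at a threshold of 50 CPM and 1.09 with 1 mean per group. Against all 36 libraries as reference, the neocortical median was -0.48 in C57 RCF female replicate 4 and 1.07 in C57 control male replicate 5, and the hippocampal one 0.40 in C57 control male replicate 1 and -0.33 in C57 RCF female replicate 4. With TMM library sizes those last 2 were 0.67 and -0.36. A prior count of 0.5 gave 1.44 for the hippocampal median of C57 control male replicate 5 and 7.90 for the Hox median of C57 RCF female replicate 4. The cause was not tested.

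In RCF comparisons, C57 males had 0 calls without the high libraries, 1 with an indicator for them, 1 without a low-count filter and 7 by DESeq2. C57 females had 0, 0, 0 and 85 under the same settings, DBA males 18 and DBA females 43 by DESeq2, and DBA females 10 without the high libraries. Leaving out single libraries gave 2 to 5 calls in C57 males (5 without control replicate 2), 0 to 27 in C57 females (each of the 10 libraries moved the count), 3 to 7 in DBA males (7 without control replicate 1) and 1 to 4 in DBA females (1 without control replicate 3 or 5).

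Same-numbered libraries of a comparison correlated between -0.274 and 0.176, which gave no sign of pairing by number. Low correlation cannot exclude a shared litter or batch, and the labels name no animal or litter. With the replicate block there were 2 calls in C57 males, 0 in C57 females, 2 in DBA males and 3 in DBA females, and 878 genes at least 2-fold higher and 781 lower in the high libraries.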
